A study of Drosophila melanogaster with 16 samples.

Results

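The genes described are those of the proteasome, the protease complex that degrades ubiquitin-tagged proteins in the cytosol and nucleus. Members were all genes in the count files whose FlyBase symbol starts with Prosalpha or Prosbeta, or with Rpn or Rpt followed by a digit. They numbered 48 of 17698 genes. Of these, 32 encode the subunits called core here and 16 are paralogues named after a core subunit. The core subunits found by symbol comprise 7 alpha and 7 beta subunits of the 20S particle and, in the 19S particle, 6 ATPases and 4 other proteins of the base and 8 proteins of the lid. A subunit with another kind of symbol, such as Sem1, is not among them. Sem1 was read with the assembly factors and regulators.

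As background, the 20S particle is a barrel of stacked rings. The outer rings are built of alpha subunits, which form the gate, and the inner rings of beta subunits, among which Prosbeta1, Prosbeta2 and Prosbeta5 carry the proteolytic sites. The 19S particle caps the barrel: its lid removes ubiquitin from the substrate and the ATPases of its base unfold the protein and pass it into the barrel. The subunits are needed in fixed proportions, and in flies as in mammals the genes are known to be induced together by a transcription factor of the cap'n'collar family, cnc in flies, when the protease is inhibited. In neurons the complex is known for turning over synaptic and misfolded proteins.

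RNA was sequenced from the central nervous system (CNS) of late larvae of 4 genotypes, each with 4 replicates of 20 pooled CNSs, from animals grown at 25°C. All 4 genotypes carry the pan-neuronal driver nsybGal4, which acts in neurons, whereas the whole CNS was taken, glia and dividing precursors included. Control was nsybGal4/+, TFAM o/e (overexpression) was nsybGal4>UAS-TFAM3M, and the combination was nsybGal4>UAS-TFAM3M, UAS-ATF4 RNAi. The last genotype, nsybGal4>UAS-ATF4-HA, is labelled ATF4 overexpression, here ATF4 o/e. TFAM packages mitochondrial DNA, and its overexpression was used to cause mitochondrial stress. ATF4, encoded by crc, is a transcription factor of the stress response. The comparisons ask whether the subunit genes changed with that stress, with ATF4 overexpression, and when ATF4 was knocked down under stress. Each comparison is between genotypes, so that any other difference between them enters it as well. No library with ATF4 RNAi alone was analysed here.

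Libraries held 18215062 to 24778270 counts. TFAM had 97.0 ± 29.7 CPM (counts scaled to library size; SD, n = 4) in control against 538 ± 118 in TFAM o/e and 544 ± 123 in the combination, with no overlap (two-sided exact permutation p = 0.0286 for each, the least possible with 4 against 4, and 0.0857 adjusted over 12 tests). The gene crc had 203 ± 17.0 CPM (SD, n = 4) in control, 202.5 ± 32.6 in TFAM o/e and 156 ± 6.89 in the combination. The combination was lower than TFAM o/e and than control (exact permutation p = 0.0286 for each, adjusted 0.0857), but crc was still detected there. In the libraries labelled ATF4 o/e crc had 184 ± 5.16 CPM, where its mean was not above that of control (exact permutation p = 0.0571, adjusted 0.137). Every neuron and glia marker listed was detected: the 8 neuron markers summed to between 2081 and 3811 CPM and the 5 glia markers to between 924.6 and 1944 CPM. The 6 fat body markers summed to between 50.0 and 509.5 CPM, the 5 muscle markers to between 21.4 and 159 CPM, the 5 salivary gland markers to between 0.579 and 196.5 CPM and the 4 hemocyte markers to between 33.4 and 85.1 CPM. Genotypes also differed in genes other than TFAM and crc. The gene sordd2 had 0 CPM in all control and TFAM o/e libraries. It had 13.1 to 15.7 CPM in the combination and 11.96 to 17.9 CPM in the libraries labelled ATF4 o/e. The gene v had 6.51 to 11.3 CPM in the combination and at most 0.392 CPM in any other library. The source of these differences and their part in the comparisons were not tested. Libraries differed by gene length, with control replicate 3 farthest from the rest. The slope of log2 CPM (1 added) on log2 exon length, over genes with a mean above 1 CPM, was 0.202 in control replicate 3, 0.440 in TFAM o/e replicate 2 and 0.484 in replicate 4 of the combination, against 0.553 to 0.785 in the other 13 libraries.

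Levels are compared between genes as FPKM, which here is CPM per kb of merged exons. Of the 32 core subunits, 31 were detected, and each stood above at least 95.5% of the genes with counts in control. Their control means ran from 116 ± 25.9 FPKM for Rpn2 to 393 ± 191 FPKM for Prosbeta5 (SD, n = 4), so that the 31 subunits spanned a narrow range near the top of the transcriptome. The genes are scattered, with 4 core subunits on 2L, 10 on 2R, 5 on 3L, 9 on 3R and 4 on X, and the closest detected core pair, Rpn9 and Rpt5 on 3R, has 19413 bases between its members. Summed, the core subunits took 0.766% to 0.993% of all counts of a library. The sum was 8707 ± 1362 CPM in control, 8367 ± 859 in TFAM o/e, 8437 ± 856 in the combination and 8103 ± 440 in the libraries labelled ATF4 o/e (SD, n = 4 each). The ranges of these sums overlapped between all 4 genotypes.

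**Figure D1:**
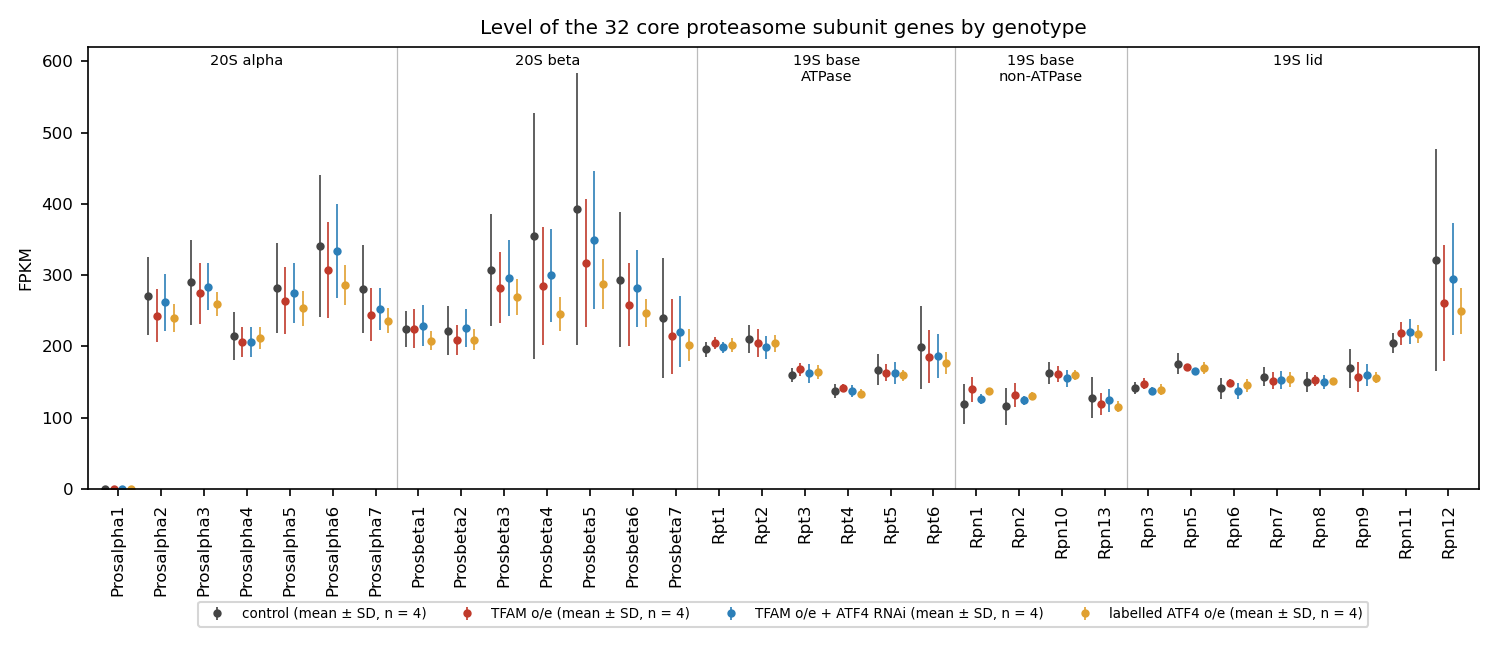
FPKM (vertical axis, linear from 0) of the 32 core subunits (horizontal axis, by position in the complex) in 4 genotypes; points are means and bars SD over 4 replicates. Prosalpha1 lies at 0, most 20S subunits lie above the 19S subunits, and the widest bars belong to control, with Prosbeta5 at 393 ± 191.

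The alpha subunits form the outer rings of the barrel and close its entrance. In control, Prosalpha6 was the highest of them at 341 ± 99.3 FPKM and Prosalpha4 the lowest detected at 215 ± 34.3 FPKM (SD, n = 4). Prosalpha2, Prosalpha3, Prosalpha5 and Prosalpha7 lay between 271 and 290.1 FPKM, differences well inside their SDs of 54.3 to 62.8 FPKM. The same 2 genes were highest and lowest of the alpha subunits in TFAM o/e (307 ± 67.3 and 206 ± 20.4 FPKM), in the combination (334 ± 65.6 and 206 ± 20.4 FPKM) and in the libraries labelled ATF4 o/e (286 ± 28.2 and 212 ± 15.5 FPKM).

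The beta subunits form the proteolytic chamber. Prosbeta5, the subunit with the chymotrypsin-like site, had the highest mean of all core subunits in each genotype: 393 ± 191 FPKM in control, 317 ± 89.5 in TFAM o/e, 349.5 ± 96.6 in the combination and 288 ± 35.3 in the libraries labelled ATF4 o/e (SD, n = 4). These means lay above those of Prosalpha6 by less than the SDs. Prosalpha6 was instead the highest in control replicates 1 and 4 and TFAM o/e replicates 1 and 3. The same held in replicates 1 and 2 of the combination and replicates 1 and 3 labelled ATF4 o/e. Prosbeta2, with the trypsin-like site, had the lowest mean of the 7 in control at 222 ± 34.4 FPKM, and Prosbeta1, with the caspase-like site, followed at 224 ± 25.5 FPKM. The 3 catalytic subunits thus lay at both ends of the beta subunits. Prosbeta4, a structural subunit of the ring, had rank 2 of the core subunits in control at 355 ± 173 FPKM and rank 8 in the libraries labelled ATF4 o/e at 245 ± 24.3 FPKM, but its order among neighbours is smaller than its spread.

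The 19S base ATPases, a ring of 6 related subunits that unfolds substrates, lay close together. Rpt2 was highest in control at 210.3 ± 20.1 FPKM and Rpt4 lowest at 138 ± 9.96 FPKM (SD, n = 4), and Rpt4 was also the lowest in the other 3 genotypes. Of the other base subunits, Rpn10 and Rpn13 are ubiquitin receptors and Rpn1 and Rpn2 are large scaffolds. Rpn10 was the highest of the 4 at 163 ± 15.2 FPKM, while Rpn13, Rpn1 and Rpn2 had 128 ± 28.4, 119 ± 27.9 and 116 ± 25.9 FPKM in control and were the 3 lowest core subunits there. In TFAM o/e the same 3 genes had 119 ± 15.3, 139.6 ± 17.0 and 132 ± 16.9 FPKM, so that their order is not fixed beyond the spread.

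In the lid, Rpn12 was highest in control at 321 ± 156 FPKM and Rpn6, which in yeast clamps the lid to the barrel, was lowest at 141 ± 14.9 FPKM (SD, n = 4). Rpn3, a lid scaffold, stood beside Rpn6 at 142 ± 8.32 FPKM. Rpn11, the metalloprotease that cuts ubiquitin from the substrate, had 205 ± 14.4 FPKM. It had 230.4, 258, 266 and 235 CPM in control replicates 1 to 4. Rpn12 had 217, 258, 550 and 250.4 CPM in the same replicates, with replicate 3 far above the others.

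The median of the 13 detected 20S subunits lay above that of the 18 subunits of the 19S particle in every library, although the lid subunit Rpn12 reached the range of the 20S subunits. The median was 281 ± 63.7 against 161 ± 13.6 FPKM in control, 255 ± 51.3 against 159 ± 8.40 in TFAM o/e, 271 ± 42.5 against 156 ± 11.6 in the combination and 244 ± 21.9 against 158 ± 7.32 in the libraries labelled ATF4 o/e (SD, n = 4). The ratio of these medians was 1.74 ± 0.277, 1.59 ± 0.243, 1.73 ± 0.187 and 1.55 ± 0.0927 in the same order. Its range over replicates, 1.51 to 2.12 in control and 1.45 to 1.66 in the libraries labelled ATF4 o/e, overlapped between genotypes. The 20S genes are also the shorter ones, with a median exon length of 973 bases against 1589 bases for the 19S genes, and the part of length in this ratio was not tested.

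Prosalpha1, an alpha subunit without which the outer ring is not complete, had 0 counts in all 16 libraries, and so did its paralogue Prosalpha1R. The genes are neighbours on the minus strand of 2R in the dm6 assembly, at 7827303 to 7828678 and 7830413 to 7831771, with 1734 bases between them. Of their 4 annotated exons, 3 match in length (580, 177 and 100 bases) and the other has 112 against 95 bases, and their introns match exactly in length (288, 62 and 57 bases). The exons of each also overlap those of a gene on the other strand by 17 bases. That gene is phr for Prosalpha1, with 80.0 ± 30.4 CPM in control (SD, n = 4), and CG18853 for Prosalpha1R, also with 0 counts in all 16 libraries. A value of 0 at such a pair does not show that either gene was not expressed. Neither the identity of the copies nor the counting of reads that match both was tested.

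**Figure D2:**
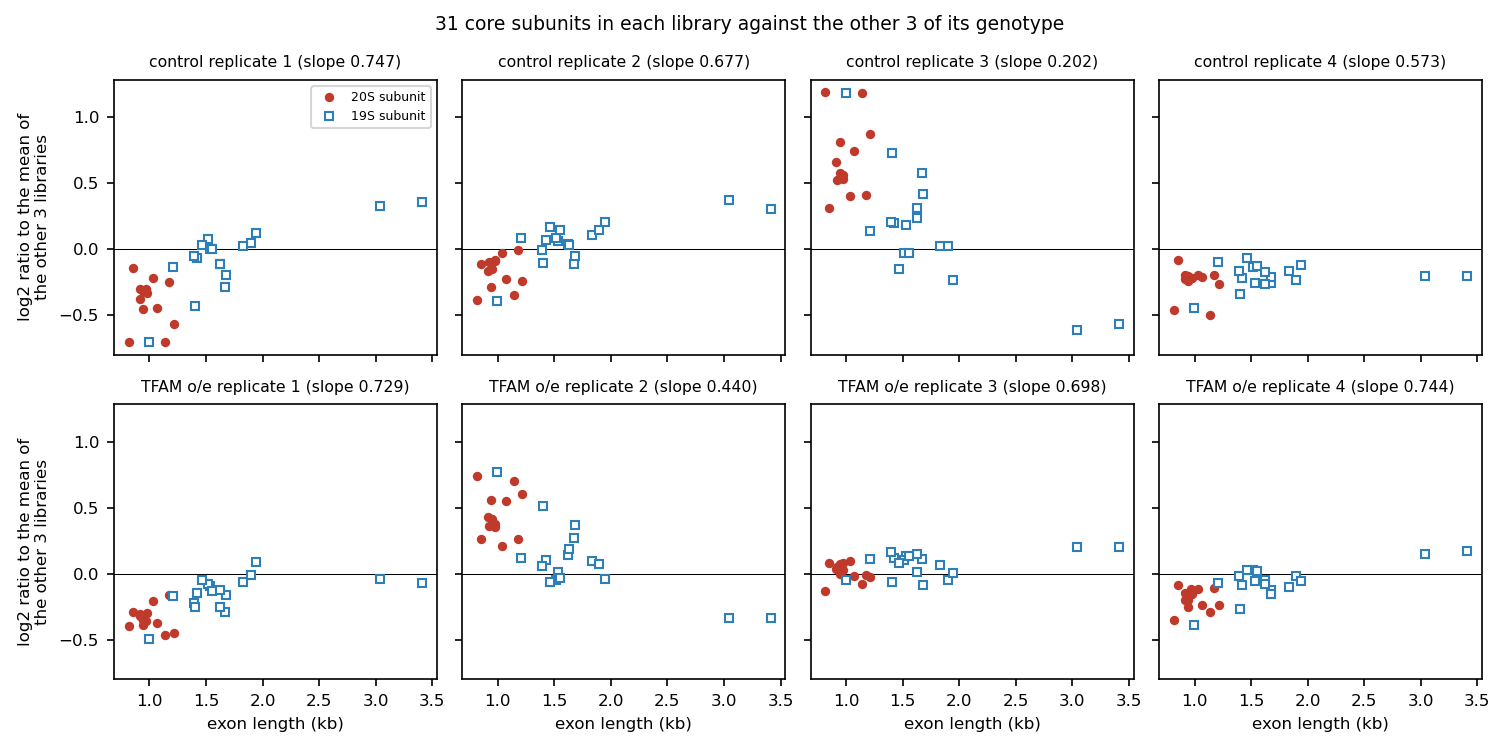
Log2 ratio of each of 31 core subunits in a library to the mean of the other 3 libraries of its genotype (vertical axis) against exon length in kb (horizontal axis), for control (top) and TFAM o/e (bottom); filled circles are 20S and open squares 19S subunits. In control replicate 3 and TFAM o/e replicate 2 the short genes lie above 0 and the longest, Rpn1 and Rpn2, below it.

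Few of the paralogues were detected at more than a trace. Of the 16, 14 stayed below a mean of 1 CPM in every genotype, with 159 counts between them over the 16 libraries and at most 8 in any library. Prosalpha1R, Prosbeta5R1 and Prosbeta5R2 had 0 counts everywhere. For Prosbeta5R1 and Prosbeta5R2 this allows up to 0.119 to 0.177 CPM per library at a limit of 3 counts (counting error only). In total 10 of the 16, these 3 included, never passed 3 counts, and Prosalpha4T1, Rpn13R, Rpn12R and Rpt4R reached between 4 and 8. Many of these paralogues are known for expression in the fly testis. The 8 testis markers summed to between 20.4 and 27.8 CPM, of which aly and sa never passed 3 counts and the other 6 did so in at least 1 library.

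Rpt3R and Rpt6R, paralogues of base ATPases, were the exceptions. Rpt3R (3R, 9754735 to 9756510) had 8.54, 7.83, 10.9 and 10.4 CPM in control, 7.27, 8.97, 8.03 and 6.90 in TFAM o/e, 8.19, 8.27, 8.61 and 9.23 in the combination and 6.15, 8.44, 6.77 and 7.004 in the libraries labelled ATF4 o/e. Its values overlapped between all 4 genotypes, with the control mean highest. Per exon length it stood at 2.68% to 4.80% of Rpt3. Rpt6R (3R, 30582198 to 30583697) had 2.25, 4.60, 7.26 and 1.68 CPM in control, and 0.568% to 1.79% of the level of Rpt6 per exon length. It had 2.58, 6.21, 4.03 and 2.63 CPM in TFAM o/e, 1.22, 4.01, 4.24 and 3.86 in the combination and 2.21, 3.85, 4.34 and 3.78 in the libraries labelled ATF4 o/e. Replicates of each genotype spread widely and all genotypes overlapped.

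The SD of log2 CPM between replicates of a genotype was 0.16 in the median over the 31 core subunits and 0.21 in the median over 8684 genes above 1 CPM. It was lowest for Rpt1 (0.07), Rpn3 (0.07) and Rpn5 (0.08) and highest for Rpn12 (0.42), Prosbeta5 (0.42) and Prosbeta4 (0.40). Much of the range lay in control replicate 3. There, all 13 detected 20S subunits were above the mean of the other control replicates, from 1.24-fold for Prosbeta1 to 2.28-fold for Prosbeta4. The 19S subunits split into 12 above and 6 below, from 0.656-fold for Rpn1 to 2.27-fold for Rpn12. The deviation ran with exon length (Pearson's r = -0.78 over 31 genes, which share a library and are not independent). TFAM o/e replicate 2 had the same form, with all 13 of the 20S subunits higher (1.16-fold to 1.67-fold) and the 19S subunits between 0.791-fold (Rpn2) and 1.70-fold (Rpn12), r = -0.77 over the same 31 genes. In replicate 4 of the combination all 13 were higher by 1.06-fold to 1.55-fold, and the 19S subunits lay between 0.847-fold (Rpn6) and 1.54-fold (Rpn12).

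Neuron markers also stood apart in control replicate 3, and the fat body markers had their highest control sum there, among widely spread values. There, the 8 neuron markers summed to 2081 CPM against 3383 to 3495 CPM in the other control replicates, and the 6 fat body markers to 509.5 against 130.6 to 389 CPM. The 5 glia markers summed to 1832 CPM, inside the 1166 to 1944 CPM of the others. Between genotypes, the fat body markers summed to 130.6 to 509.5 CPM in control and to 59.9 to 113 CPM in TFAM o/e, with no overlap, and to 50.0 to 172 CPM in the combination and 74.8 to 329 CPM in the libraries labelled ATF4 o/e. The glia markers summed to 1166 to 1944 CPM in control and, lower but overlapping, to 924.6 to 1350 CPM in TFAM o/e. They summed to 950.5 to 1252 CPM in the libraries labelled ATF4 o/e, also lower but overlapping. In the combination they summed to 1192 to 1335 CPM, within the lower part of the control range. The part of these markers in the subunit levels and in the comparisons with control was not tested. In such bulk samples fewer cells of a type and less RNA per cell cannot be told apart. Because the libraries differed in length slope, each comparison below is given as fitted on the 8 libraries and again with that slope as a covariate. The slope is computed from the CPM and the exon length of genes, so that it is not a measure of length alone. Neuron markers summed to 2710 CPM in TFAM o/e replicate 2 against 3076 to 3623 CPM in its other replicates. In the combination they summed to 2823 and 2947 CPM in replicates 3 and 4, against 3724 and 3574 CPM in replicates 1 and 2. The part of neuron content in the slope, and so in the covariate fits, was not tested.

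Control versus TFAM o/e asks whether the subunit genes responded to mitochondrial stress in neurons. No member passed the test. Of the 33 members that passed the filter on low counts (31 core subunits, Rpt3R and Rpt6R), 0 were called by edgeR's quasi-likelihood test (Benjamini-Hochberg adjusted p below 0.05, change of 1.2-fold or more), against 0.299% of 9355 genes. DESeq2 called 0 members as well, against 1.04% of the genes it adjusted, and 0 members reached an unadjusted p under 0.05 with either tool, against 4.34% of all genes tested in edgeR. In 0 members did the CPM of the genotypes fail to overlap, which happened for 3.46% of the genes tested. The 31 core subunits had log2 fold changes from -0.34 to 0.22 with a median of -0.07, beside a median of -0.01 over all genes tested. All 13 of the 20S subunits were below 0, whereas 9 of the 18 subunits of the 19S particle were above it.

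The values farthest from 0 belonged to genes that stood apart in control replicate 3. These were Prosbeta4 (FBgn0032596, 2L, 16731180 to 16732133), Prosbeta5 (FBgn0029134, 2R, 10819978 to 10821178, with 81 exon bases shared with Lsm10 on the other strand) and Rpn12 (FBgn0028693, 3L, 16583028 to 16584022). Prosbeta4 had 197, 235, 499 and 225 CPM in control and 188, 332, 216 and 192 CPM in TFAM o/e, log2 change -0.34 (SE 0.32, edgeR adjusted p = 0.880). Without control replicate 3 it was 0.07. Prosbeta5 had 304, 372, 771 and 342 CPM in control and 280.5, 509, 346 and 310 CPM in TFAM o/e, log2 change -0.33 (SE 0.32), or 0.08 without that replicate. Rpn12 had 199, 375, 253 and 210.1 CPM in TFAM o/e, log2 change -0.32 (SE 0.32), or 0.09 without it. For each of these genes the groups overlapped and the difference was smaller than the spread between replicates.

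At the other end stood the long scaffold genes Rpn1 (FBgn0028695, 3L, 19915051 to 19918160) and Rpn2 (FBgn0028692, 3R, 29153524 to 29157255). Rpn1 had 428, 436, 259.7 and 325 CPM in control and 415, 355, 470 and 458 CPM in TFAM o/e, log2 change 0.22 (SE 0.19, edgeR adjusted p = 0.880). Rpn2 had 476, 464, 291 and 357 CPM against 434, 376, 499 and 492 CPM, log2 change 0.17 (SE 0.19). In both genes control replicate 3 was the lowest of the 8 libraries. Rpn11 had 241, 281, 279.9 and 254 CPM in TFAM o/e, log2 change 0.08 (SE 0.11).

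With the length slope as a covariate the spread closed. The 31 core subunits then lay between -0.08 and 0.11 on the log2 scale with a median of 0.02, and 0 members were called, against 1.07% of the genes tested. The 95% intervals of all 31 lay within a 1.5-fold change, and those of 30 lay within 1.2-fold. In the fit without the covariate the intervals of 21 lay within 1.5-fold. Prosbeta4, Prosbeta5 and Rpn12 were at -0.02, -0.01 and 0.00 in the covariate fit and Rpn1 at 0.10 (SE 0.08, 0.09, 0.09 and 0.08). Across the 31 genes, Pearson's r of the log2 fold change with log2 exon length was 0.73 without and 0.27 with the covariate, as a description over genes of the same libraries.

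**Figure D3:**
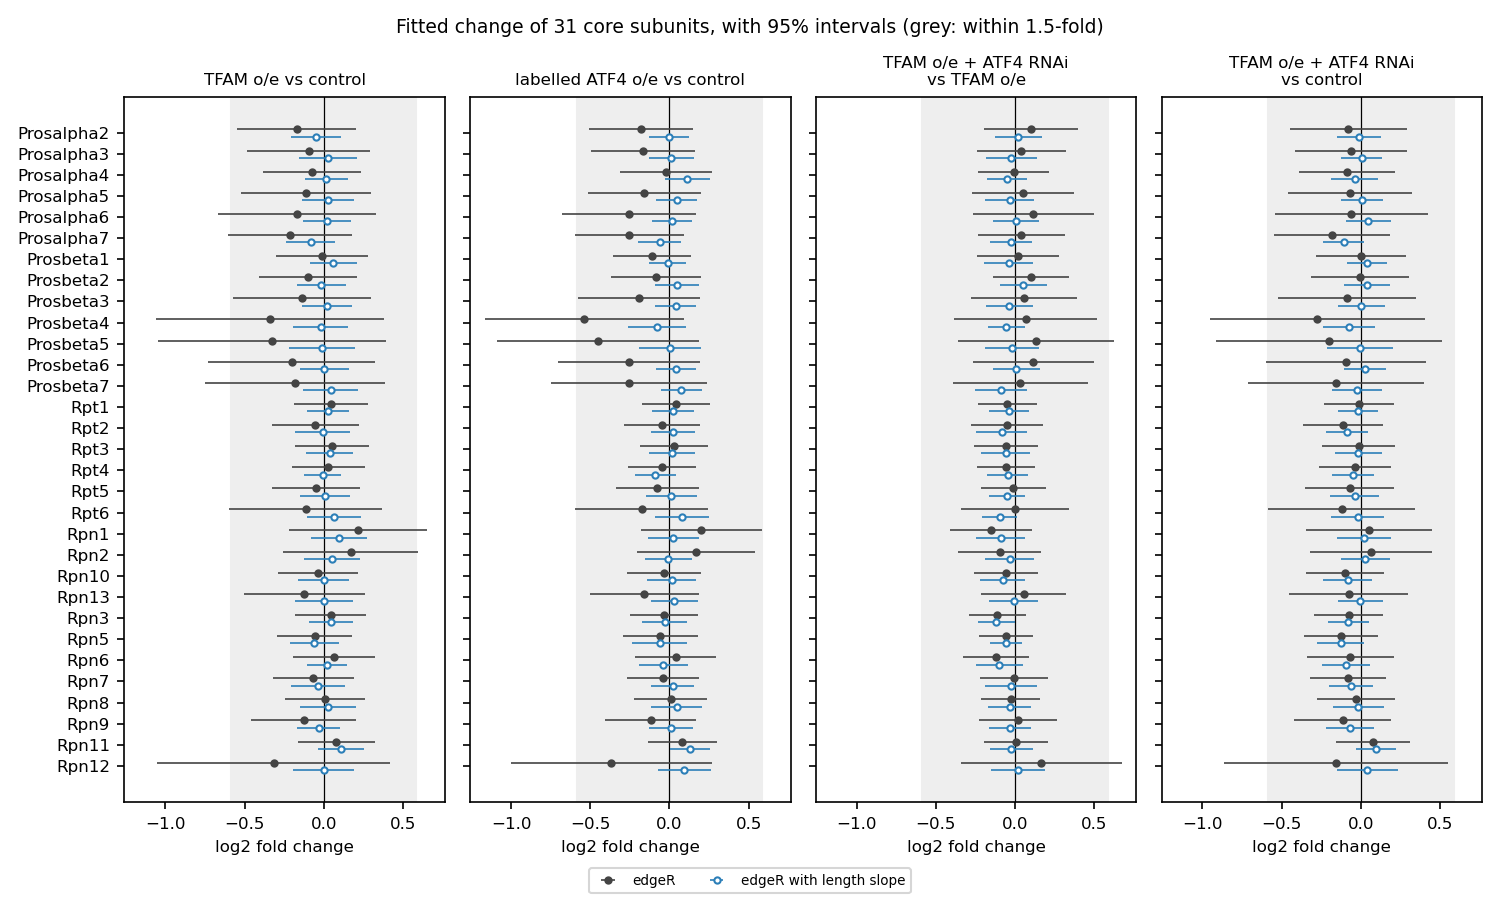
Log2 fold changes (horizontal axis) of 31 core subunits (vertical axis) in 4 comparisons, fitted by edgeR without (filled) and with (open) the length slope of each library as a covariate; bars are 95% intervals and grey marks changes within 1.5-fold. All 31 intervals of the covariate fit lie inside the grey band in each panel, and the widest intervals of the other fit belong to Prosbeta4, Prosbeta5 and Rpn12.

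Control versus the libraries labelled ATF4 o/e gave no call among the members either. Of 33 members tested, 0 were called by edgeR (against 0.765% of 9410 genes) and 0 by DESeq2 (against 1.69%), and 0 had genotypes that did not overlap (against 6.93%). Each tool gave 1 member an unadjusted p under 0.05, a smaller share than the 8.91% of all genes tested in edgeR. In edgeR this was Rpt3R, at 9.42 ± 1.46 CPM in control and 7.09 ± 0.966 CPM here (SD over 4 replicates each). For Rpt3R the fit gave log2 change -0.41 (SE 0.16, edgeR adjusted p = 0.489), and -0.29 with the length slope (adjusted p = 0.373). The core subunits ran from -0.54 to 0.20 with a median of -0.09, beside -0.02 over all genes tested, and 7 of 31 were above 0, none of them in the 20S particle.

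Prosbeta4 gave the lowest value, -0.54 (SE 0.28, edgeR adjusted p = 0.530), with 173, 207, 199.8 and 219.9 CPM in the libraries labelled ATF4 o/e. These lay among control replicates 1, 2 and 4 (197 to 235 CPM) or below them and far under the 499 CPM of replicate 3, and without that replicate the log2 fold change was -0.13. Prosbeta5 had 290.3, 364, 296 and 362 CPM there and log2 change -0.45 (SE 0.28), or -0.05 without that replicate. Rpn12 was at -0.37 (SE 0.28), or 0.04 without it. Rpn1, Rpn2 and Rpn11 were at 0.20, 0.17 and 0.08 (SE 0.17, 0.17 and 0.10).

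With the length slope, the core subunits lay between -0.09 and 0.13 with a median of 0.02. The 95% intervals of all 31 were within 1.5-fold and of 30 within 1.2-fold, and 0 members were called, against 1.83% of genes tested. Rpn11, the deubiquitinase, was the highest at 0.13 (SE 0.06, unadjusted p = 0.0445 and adjusted p = 0.351 in edgeR), with 245, 278, 255 and 272 CPM against 230.4 to 266 CPM in control. Rpn2 was then at -0.01 and Prosbeta4 at -0.08.

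TFAM o/e versus its combination with ATF4 RNAi asks whether the subunit genes depend on ATF4 under stress, although these genotypes also differed in sordd2 and v. The mean of crc was 202.5 CPM in TFAM o/e and 156 CPM in the combination, so that its RNA was lowered and not removed. The core subunits split evenly, 16 above and 15 below 0, between -0.15 and 0.17 with a median of 0.00, beside a median of 0.00 over all genes tested. Of 33 members, 0 were called by edgeR (against 0.551% of 9436 genes) and 0 by DESeq2 (against 1.37%), and 0 reached an unadjusted p under 0.05 with either (against 5.81% of all genes in edgeR). The genotypes overlapped for every member, whereas they did not for 4.15% of the genes tested.

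The highest were Rpn12, Prosbeta5 and Prosbeta6, at 0.17, 0.13 and 0.11 (SE 0.23, 0.22 and 0.17). Rpn12 had 199, 375, 253 and 210.1 CPM in TFAM o/e and 208, 269.6, 296 and 396 CPM in the combination, where replicate 4, the library with the low length slope, was the highest. Without that replicate Rpn12 was at -0.01 and Prosbeta5 at -0.04. The lowest were the longer genes Rpn1, Rpn6 and Rpn3, at -0.15, -0.12 and -0.11 (SE 0.12, 0.09 and 0.08). Rpn3 had 262, 284, 280.4 and 256 CPM in TFAM o/e against 247, 246, 265 and 248 CPM in the combination, so that the 2 groups overlapped only between 256 and 265 CPM. With the length slope Rpn3 was at -0.12 (SE 0.05, unadjusted p = 0.0477 and adjusted p = 0.398 in edgeR). In that fit the core subunits lay between -0.12 and 0.05, 0 members were called, against 1.58% of the genes tested, and all 31 intervals were within 1.2-fold.

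Control versus the combination shares its control libraries with the first 2 comparisons. Of 33 members, 0 were called by edgeR (against 0.563% of 9421 genes) and 0 by DESeq2 (against 1.07%), 0 had an unadjusted p under 0.05 with either (against 4.70% of all genes in edgeR), and 0 had genotypes apart (against 3.59%). The core subunits lay between -0.27 and 0.08 with a median of -0.08, beside -0.02 over all genes tested, and 4 of 31 were above 0. Prosbeta4 (-0.27, SE 0.30), Prosbeta5 (-0.20, SE 0.32) and Prosalpha7 (-0.18, SE 0.16) were lowest. Prosalpha7 had 229, 261, 361 and 244 CPM in control and 209.9, 237, 266 and 273 CPM in the combination, and without control replicate 3 it was at -0.01. Rpn11, Rpn2 and Rpn1 were highest at 0.08, 0.06 and 0.05 (SE 0.10, 0.17 and 0.18). With the length slope, the range was -0.13 to 0.09, 0 members were called, against 1.89% of the genes tested, and 30 of 31 intervals were within 1.2-fold.

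The same comparisons were run without control replicate 3, TFAM o/e replicate 2 and replicate 4 of the combination, a choice made after the data were seen. No member was called in any of the 4 comparisons. The core subunit medians were 0.00, 0.02, 0.03 and 0.01 in the order above, with 12, 20, 17 and 18 of 31 above 0. All 31 intervals lay within 1.5-fold in each comparison. The core subunits lay between -0.13 and 0.18, -0.13 and 0.13, -0.22 and 0.21, and -0.09 and 0.09 in the same order. For the combination against TFAM o/e this range, from Rpn1 to Rpn12, was wider than the -0.15 to 0.17 of all 8 libraries. At least 1 member reached an unadjusted p under 0.05 in edgeR there.

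Genes that assemble, regulate or feed the proteasome were read from 2 further lists, of which 26 genes were tested. None was called by edgeR on the 8 libraries in any of the 4 comparisons, and an unadjusted p under 0.05 was seen only in the combination against TFAM o/e, for 1 gene of each list (Pomp and Ubi-p63E), beside 5.81% of all genes. With the length slope, 1 gene of each list was called lower in that comparison (again Pomp and Ubi-p63E), beside 1.58% of all genes called in either direction, and 1 gene of ubiquitin supply, Ubi-p5E, was called higher in ATF4 o/e against control, beside 1.83%. The list of 13 assembly factors and regulators had medians of -0.18, -0.24, 0.04 and -0.08 in log2 fold change in the order above, and the 13 genes of ubiquitin supply and delivery had 0.04, 0.10, -0.02 and -0.04. The transcription factor gene cnc had 187 ± 54.5 CPM in control, 232 ± 34.6 in TFAM o/e, 194 ± 15.4 in the combination and 224 ± 18.9 in the libraries labelled ATF4 o/e (SD, n = 4), with log2 fold changes between -0.27 and 0.30 and edgeR adjusted p values of at least 0.548. REG encodes the PA28 gamma activator, an alternative cap of the barrel, and had 334 ± 79.0, 298 ± 65.6, 308 ± 33.2 and 271 ± 26.6 CPM in the same order. PI31, a regulator that binds the barrel, had 129 ± 67.4, 104 ± 34.0, 118 ± 35.1 and 95.5 ± 8.41 CPM. Neither REG nor PI31 was called in any comparison, with or without the length slope.

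Pomp, the chaperone that helps the beta subunits join the barrel, was called in the combination against TFAM o/e with the length slope as a covariate. It lies on 2L at 20787656 to 20789098, and 437 bases of its exons overlap vari on the other strand. Pomp had 116, 134, 163 and 128 CPM in control, 140.2, 211, 173 and 147 CPM in TFAM o/e, 112, 124, 149 and 149.8 CPM in the combination and 109.7, 133, 123 and 132 CPM in the libraries labelled ATF4 o/e. TFAM o/e had the highest mean. It overlapped control and the combination. On these CPM a two-sided exact permutation test gave p = 0.143 against control and 0.171 against the combination, or 0.286 and 0.294 adjusted over 12 tests. The combination against TFAM o/e gave log2 change -0.34 (SE 0.14, edgeR adjusted p = 0.810), and Pomp fell by 0.42 with the length slope (SE 0.07, adjusted p = 0.0142). TFAM o/e against control gave 0.30 (SE 0.16, edgeR adjusted p = 0.880), and 0.40 with the length slope (SE 0.08, adjusted p = 0.0580). The call in the first of these thus rests on the covariate.

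**Figure D4:**
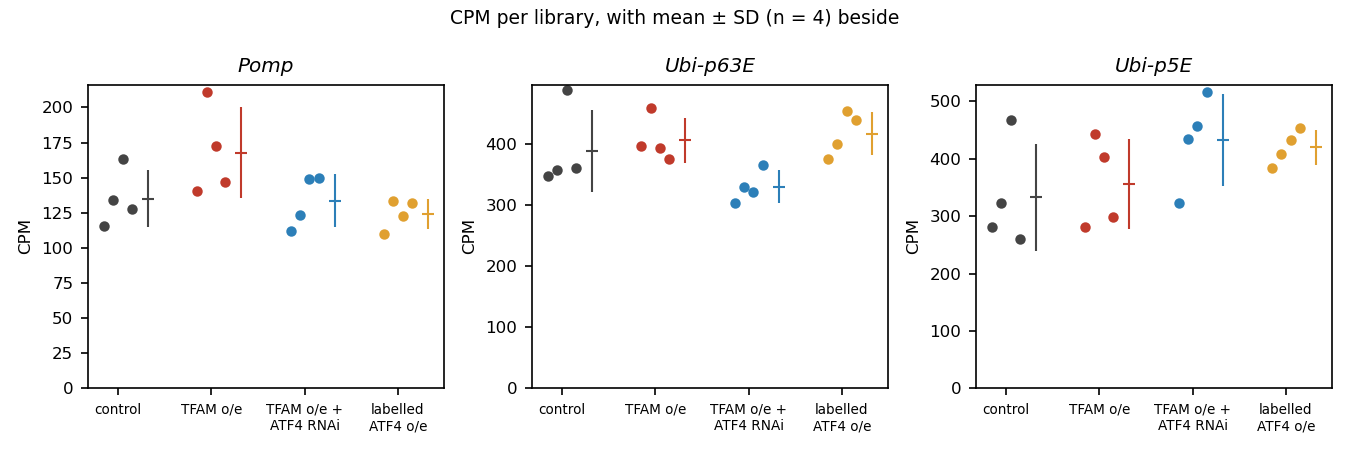
CPM (vertical axis, linear from 0) of Pomp, Ubi-p63E and Ubi-p5E in each of the 16 libraries by genotype (horizontal axis); points are replicates and the bar beside them is the mean ± SD, n = 4. Pomp has its highest mean in TFAM o/e (168 ± 32.2), Ubi-p63E its lowest in the combination (330 ± 26.6), and Ubi-p5E its lowest in control (333 ± 93.3).

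Of the polyubiquitin genes, which supply free ubiquitin, Ubi-p63E had 346, 357, 487 and 361 CPM in control, 395, 459, 392 and 376 in TFAM o/e and 302, 329, 321 and 366 in the combination. All 4 replicates of the combination lay below all 4 of TFAM o/e. In this comparison 4.15% of the genes tested did not overlap, in either direction. Ubqn of the same list did not overlap either, at a log2 fold change of -0.14 (SE 0.08). For Ubi-p63E the log2 fold change was -0.31 (SE 0.09, edgeR adjusted p = 0.416), and it fell by 0.34 with the length slope (SE 0.05, adjusted p = 0.00925). Ubi-p5E had 281, 322, 467 and 260.6 CPM in control and 384, 409, 433 and 454 in the libraries labelled ATF4 o/e. Its log2 fold change was 0.33 (SE 0.18, edgeR adjusted p = 0.530), and it rose by 0.55 with the length slope (SE 0.11, adjusted p = 0.0376) and also by 0.55 without control replicate 3 (adjusted p = 0.0245). Control replicate 3 was its highest library there, and the other 3 control replicates lay below all of those labelled ATF4 o/e. Values of similar size, though not called, were fitted for Ubi-p5E in the combination against control. They were 0.35 (SE 0.21), or 0.43 with the length slope (SE 0.10, edgeR adjusted p = 0.0879) and 0.57 without control replicate 3. In TFAM o/e against control Ubi-p5E was at 0.08 (SE 0.22), or 0.24 with the slope (SE 0.13). Ubi-p63E, Ubi-p5E, RpL40 and RpS27A all encode ubiquitin, so that reads could have been split between them, and Pomp and these polyubiquitin genes are described at this length because of their values.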

How the data were processed

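Polyadenylated RNA was sequenced as 75-base single-end reads with a stranded kit. Per the submitters' processing notes and the study's methods, reads were checked with FastQC 0.52, mapped to dm6 with Bowtie2 2.3.4.2 and counted per gene with featureCounts 1.6.3. The files hold the raw counts per gene as deposited by the authors. The methods state that these tools ran in Galaxy with their defaults. The annotation, and any strand setting apart from that statement, are not given in the sources used here. A gene whose reads map to more than one place can be undercounted by such steps.

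Each comparison was fitted on its 8 libraries with edgeR 4.0.16 in R 4.3.3 (TMM scaling, filterByExpr, quasi-likelihood test, Benjamini-Hochberg adjustment), and a call needed an adjusted p below 0.05 and a change of 1.2-fold or more. CPM used TMM over 16 libraries. FPKM and coordinates used the dm6 annotation of Ensembl release 115, where 17560 of 17698 identifiers had a symbol. Alternatives were DESeq2 1.42.0, other scalings, filters and library sets, a replicate block, and the length slope as a covariate. The edgeR script was tested on simulated data with the same dispersion for all genes and no length slope or outlying library. That test does not show how the fits behave under such differences between libraries. Members and lists were chosen with earlier results of these data known. Named were, per comparison, the 3 core subunits with the largest rise and the 3 with the largest fall, the highest and lowest of each subunit list, paralogues of at least 1 CPM, called genes of the pathway lists, and Pomp, REG, PI31 and cnc. TER94 was not analysed here. Each replicate pooled 20 CNSs, and replicates differed by more than sampling noise (chi-square per degree of freedom 9.22 to 397). Limits on zero counts cover counting error only.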

Additional observations from a re-analysis of the deposited data

Results flagged for a closer look

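In 14 of 160 groups of 4 replicates, 1 library lay far from the other 3 by Dixon's test, of which chance flags about 1 in 20. The groups are genes of the same 16 libraries and are not independent, so their number cannot be tested against that rate. Control replicate 3 accounted for 9 of the 14. It had 355 CPM for Prosalpha5 (the nearest control had 246), 522 for Prosalpha6 (326), 223 for Prosbeta1 (183), 499 for Prosbeta4 (235), 771 for Prosbeta5 (372), 409.9 for Prosbeta6 (244), 549.8 for Rpn12 (258), 487 for Ubi-p63E (361) and 229 for PI31 (106). TFAM o/e replicate 2 accounted for 3, with 317 CPM for Rpn9 (252), 154 for PI31 (93.6) and, as a low value, 180.4 for cnc (246). In the combination, replicate 3 had 265 CPM for Rpn3 (248) and replicate 1 had 1.22 CPM for Rpt6R (3.86). Control replicate 3 and TFAM o/e replicate 2 had the lowest length slopes, 0.202 and 0.440; the part of the slope in each value was not tested.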

How the results depend on the processing

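Leaving out or adding libraries, other scalings, filters and tools gave no call among the members in any of the 4 comparisons. The number of all genes called was 28 for TFAM o/e against control, 72 for ATF4 o/e against control, 52 for the combination against TFAM o/e and 53 for the combination against control. DESeq2 called 121, 208, 163 and 134 in that order, and the length slope covariate 100, 172, 149 and 178. A fit of all 16 libraries called 92, 147 and 94 in the 3 comparisons with control. Without the 3 libraries of lowest slope, 131 genes were called for ATF4 o/e. Leaving out 1 replicate gave 17 to 26, 29 to 131, 27 to 71 and 31 to 68 genes. The cause of these differences was not tested.

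Replicate numbers were not taken to pair the samples, since 2, 1, 1 and 3 of 4 same-numbered pairs correlated above 0.1 in the order above. A replicate block called 9, 21, 21 and 36 genes and no member. With the block and the length slope together, 151 genes were called for TFAM o/e and 321 for the combination against TFAM o/e. Log2 changes that turned sign with the block and the slope were PI31 (0.0032) for TFAM o/e, Prosbeta5 (0.048), Rpn12 (0.10), cnc (-0.027) and PI31 (0.084) for ATF4 o/e, Prosbeta5 (-0.0075) and REG (-0.034) for the combination against TFAM o/e, and Prosbeta5 (0.0088), cnc (-0.027) and PI31 (0.088) for the combination against control. Pomp in TFAM o/e was called in that fit, at 0.36 (edgeR adjusted p = 0.0304).

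With the slope alone the sign turned for PI31 (0.021) in TFAM o/e, Prosbeta5 (0.0021), Rpn12 (0.095), Rpn2 (-0.0067), PI31 (0.076) and Pomp (0.011) in ATF4 o/e, Prosbeta5 (-0.019) and REG (-0.030) in the combination against TFAM o/e, and cnc (-0.023), PI31 (0.066) and Pomp (0.0025) in the combination against control. Without the 3 libraries of lowest slope, an alternative chosen after seeing the data, it turned for Rpn12 (0.041) and PI31 (0.0054) in ATF4 o/e, and for Prosbeta4 (0.0095), Prosbeta5 (0.029), Rpn1 (-0.035), Rpn2 (-0.026), cnc (-0.094), PI31 (0.070) and Pomp (0.012) in the combination against control.

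Leaving out 1 replicate also turned signs, at the ends of these ranges. For TFAM o/e the log2 changes ran from -0.52 to 0.073 for Prosbeta4, -0.50 to 0.082 for Prosbeta5, -0.51 to 0.091 for Rpn12, -0.55 to 0.11 for PI31 and -0.0071 to 0.30 for Ubi-p5E. For ATF4 o/e they ran from -0.51 to 0.041 for Rpn12 and -0.60 to 0.0054 for PI31. For the combination against TFAM o/e they ran from -0.044 to 0.34 for Prosbeta5, -0.0053 to 0.39 for Rpn12, -0.019 to 0.20 for REG and -0.029 to 0.43 for PI31. For the combination against control they ran from -0.42 to 0.14 for Prosbeta4, -0.38 to 0.21 for Prosbeta5, -0.063 to 0.15 for Rpn1, -0.045 to 0.17 for Rpn2, -0.14 to 0.14 for cnc, -0.37 to 0.28 for PI31, -0.11 to 0.068 for Pomp and -0.25 to 0.030 for REG. At this number of replicates the 95% intervals of the core subunits had a median half-width of 0.26 to 0.33 on the log2 scale, or 0.14 to 0.16 with the slope.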
